A study of Mus musculus with 36 samples.

Results

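A total of 472 circRNAs were found in the hippocampus and in no frontal cortex sample, of 5505 circRNAs kept in the hippocampus (8.57%). They were chosen by their counts: reads in at least 2 of the 3 replicates of one time point in the hippocampus, and no read in any of the 18 frontal cortex samples. Absence from the frontal cortex is therefore the rule and not a result. The data are total RNA of whole hippocampi and frontal lobes of adult male mice, C57BL/6 in the labels and C57BL6/N in the study's methods, which were perfused and dissected in the light phase (ZT1, ZT5, ZT9) or in the dark phase (ZT13, ZT17, ZT21). There were 3 replicates per time point and tissue and 36 samples in all. All mice were unmodified and untreated, and the groups differ only in tissue and in time of day. The labels do not say that the replicates came from separate mice, and p-values then measure only the spread between these samples, which may be technical.

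CircRNAs arise when the end of an exon is spliced back to the start of the same or an upstream exon, which joins the exons into a closed ring. The ring lacks free ends and is stable, and circRNAs are abundant in the brain. A read across the head-to-tail junction tells the ring from the linear transcript. Each ring has a single such junction, so that the reads counted here do not scale with the length of the circRNA. Whether every junction counted here comes from a ring was not tested. The hippocampus differs from the frontal cortex in its cells: it holds the granule cells of the dentate gyrus and the pyramidal cells of the CA fields, and it lies beside ventricles with choroid plexus and ciliated ependyma.

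The junctions of the hippocampus-only circRNAs found in most samples are shown first, since the junction is the only part of the ring that a read can tell from the linear transcript. Each line gives the last 20 bases of the last exon in lower case and the first 20 bases of the first exon in capitals, 5′ to 3′ on the strand of the gene, from the GENCODE M21 transcripts of GRCm38. Exon numbers, ring lengths and coding content, here and below, are those of the annotated transcript between the ends. Whether exons are skipped or introns kept inside a ring was not examined.

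circTanc1, chr2:59646769-59724849, plus strand, exons 2 to 4 of Tanc1-201: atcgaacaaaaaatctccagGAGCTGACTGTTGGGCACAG
circTns3, chr11:8518199-8519570, minus strand, exons 14 to 16 of Tns3-201: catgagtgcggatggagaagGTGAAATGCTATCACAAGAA
circGalnt17, chr5:131081538-131151069, minus strand, exons 2 to 5 of Galnt17-201: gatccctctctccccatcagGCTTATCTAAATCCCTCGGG
circNcor1, chr11:62340408-62345318, minus strand, exons 7 to 10 of Ncor1-202: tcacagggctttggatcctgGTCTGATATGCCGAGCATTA
circRfx3, chr19:27837407-27900903, minus strand, exons 4 to 7 of Rfx3-204: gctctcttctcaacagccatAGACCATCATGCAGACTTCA
circItga8, chr2:12230050-12265333, minus strand, exons 3 to 13 of Itga8-201: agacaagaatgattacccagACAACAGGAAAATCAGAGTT
circTrps1, chr15:50822105-50846942, minus strand, exons 3 to 7 of Trps1-207: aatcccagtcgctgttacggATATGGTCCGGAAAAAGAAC
circTrpm3, chr19:22697422-22793454, plus strand, exons 2 to 8 of Trpm3-201: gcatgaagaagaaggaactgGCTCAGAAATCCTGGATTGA
circSlit1, chr19:41721040-41729126, minus strand, exons 2 to 4 of Slit1-201: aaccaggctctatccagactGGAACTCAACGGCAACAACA

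Total circular reads per sample were between 6754 and 73252 in the hippocampus and between 8107 and 34803 in the frontal cortex. Hippocampus ZT1 replicate 3 had the most reads of all samples, and hippocampus ZT13 replicate 1 the fewest. Over 18 samples each, the hippocampus had 431196 circular reads and the frontal cortex 362041, or 357944 in the hippocampus without ZT1 replicate 3. The smallest count above 0 in either table was 2, so that a circRNA with a single read in a sample appears as not found. Were single reads recorded, a count of 0 in the whole frontal cortex would allow a share of up to 0.000829% of its circular reads. This limit is set at 3 reads and covers counting error only. Since single reads appear as 0, the true limit is higher, and it was not computed.

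The tissue labels were compared with circRNAs of marker genes. Over the 18 samples, the circRNAs of a list of 8 hippocampal transcription factor genes had, with the hippocampus-only circRNAs left out, between 55.7 and 83.0 reads per 10000 circular reads in the hippocampus and between 16.0 and 39.0 in the frontal cortex, without overlap. CircRNAs of Prox1, a factor of dentate granule cells, had 197 hippocampus and 16 frontal cortex reads. These levels follow the labels, while the whole list of 12 genes of cortical projection neurons did not separate the tissues, with medians of 18.5 and 15.9 reads per 10000 circular reads. In such bulk tissue, fewer cells of a type and less RNA per cell cannot be told apart.

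The number of hippocampus-only circRNAs moved with depth. Without ZT1 replicate 3, 318 of 4753 circRNAs kept were hippocampus-only (6.69%), and 154 of the 472 no longer passed the rule. The mirrored rule gave 222 circRNAs found only in the frontal cortex (4.63% of the 4790 kept there), and 297 (6.20%) when hippocampus ZT1 replicate 3 was left out. With all 36 samples thinned at random to 6754 reads, the median over 21 draws was 107 hippocampus-only circRNAs (92 to 123) and 119 frontal cortex-only circRNAs (111 to 130). At equal depth, the ranges of the draws thus overlapped between the tissues, and at full depth the hippocampus had the larger number.

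Most of the 472 were rare. Their median was 7 reads over 3 samples, with a range of 4 to 130 reads, while the 5033 circRNAs kept in the hippocampus that also had a frontal cortex read had a median of 25 reads over 8 samples. In all, 165 were found in 2 samples, 131 in 3, 76 in 4, 50 in 5, 30 in 6 or 7, and 20 in 8 or more. Of the 472, 148 had 10 or more reads, 26 had 20 or more and 10 had 30 or more. Only 48 (10.2%) passed the rule on replicates at more than 1 time point, against 66.4% of those with a frontal cortex read. The share without a frontal cortex read fell with the number of samples: it was 43.8% of the circRNAs found in 2 hippocampus samples, 9.38% of those found in 5 and 0.121% of those found in 12 or more.

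**Figure D1:**
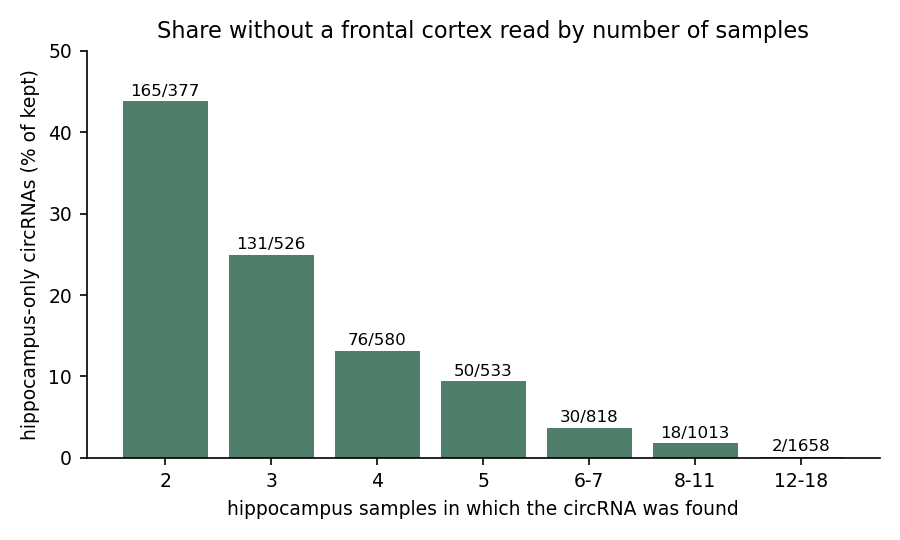
Hippocampus-only circRNAs as a percentage of all circRNAs kept in the hippocampus (y axis), by the number of hippocampus samples in which the circRNA was found (x axis), with the number over the number kept above each bar. The share is 43.8% for circRNAs found in 2 samples and 0.121% for those found in 12 to 18.

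The threshold was close for many. At its inner side, 81 members had 4 reads, 2 in each of 2 replicates, and at the share of such a circRNA the frontal cortex total would give 3.36 reads. Where these fell singly in different samples, they would appear as not found. At its outer side, 354 circRNAs kept in the hippocampus had 2 reads in 1 frontal cortex sample and were thus left out. Of these, a circRNA of the serotonin receptor gene Htr4 (chr18:62428023-62437951) had 83 reads in 16 hippocampus samples. A circRNA of the mineralocorticoid receptor gene Nr3c2 (chr8:76908270-76910028) had 34 reads in 12. A further 1276 circRNAs without a frontal cortex read were found in 2 or more hippocampus samples but never in 2 replicates of one time point, up to 6 samples, as for circRNAs of Myo5b and Hp1bp3.

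The 12 members found in most samples, with ties ordered by reads, are described one by one. CircTanc1, from the gene of a scaffold protein of the postsynaptic density, was found in 15 of 18 hippocampus samples with 81 reads. Its counts for replicates 1, 2 and 3 were 5, 4 and 12 at ZT1, 0, 8 and 3 at ZT5, 0, 4 and 6 at ZT9, 0, 7 and 5 at ZT13, 2, 3 and 5 at ZT17, and 3, 8 and 6 at ZT21. It was the sole member found in 2 or more replicates at all 6 time points, and the 3 samples without it were replicate 1 of ZT5, ZT9 and ZT13. At its share in the hippocampus, the frontal cortex total would give 68.0 reads. The ring holds 3 exons of 373 bases with part of the 5′ UTR and the start of the coding sequence.

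CircTns3, from the gene of tensin 3, which links integrins to actin, was found in 12 samples with 43 reads. Its counts for replicates 1, 2 and 3 were 0, 4 and 9 at ZT1, 0, 3 and 3 at ZT5, 0, 0 and 3 at ZT9, 0, 3 and 3 at ZT13, 2, 4 and 5 at ZT17, and 2, 2 and 0 at ZT21. It was seen in both phases, in 5 light and 7 dark samples. CircItga8 comes from the gene of the integrin α8 subunit. It held 11 exons and 1056 bases and had 28 reads in 10 samples, 5 of each phase.

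Several of the 12 came from genes of transcriptional regulators. CircTcf4 (chr18:69347279-69520026, exons 2 to 7 of Tcf4-201), from the gene of a basic helix-loop-helix factor, had 35 reads in 11 samples. CircNcor1, from the gene of a nuclear receptor corepressor, had 36 reads in 10 samples, 7 of the light phase and 3 of the dark phase. Its counts for replicates 1, 2 and 3 were 3, 6 and 7 at ZT1, 2, 2 and 0 at ZT5, 0, 3 and 2 at ZT9, 0, 2 and 7 at ZT13, 2, 0 and 0 at ZT17, and 0 in all 3 at ZT21. The light and the dark samples overlapped, and both phases had samples at 0. In reads, ZT13 replicate 3 equalled the highest light sample, ZT1 replicate 3, but their depths differed, with 16740 and 73252 circular reads. CircRfx3 comes from the gene of a factor that controls genes of cilia. It had 31 reads in 10 samples. Its counts for replicates 1, 2 and 3 were 3, 0 and 7 at ZT1, 0, 2 and 0 at ZT5, 3, 3 and 4 at ZT9, 0, 3 and 0 at ZT13, 0, 0 and 2 at ZT17, and 2, 0 and 2 at ZT21. CircTrps1, from the gene of a GATA-type repressor, had 29 reads in 9 samples. Each of these was found in both phases.

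The others came from genes of the cell surface, the secretory pathway and the synapse. CircGalnt17, from the gene of an enzyme of the family that starts mucin-type O-glycosylation, had 31 reads in 11 samples, 4 light and 7 dark. Its counts for replicates 1, 2 and 3 were 0, 2 and 3 at ZT1, 0 in all 3 at ZT5, 2, 3 and 0 at ZT9, 0, 3 and 3 at ZT13, 2, 0 and 4 at ZT17, and 2, 4 and 3 at ZT21. The highest light and dark samples had 3 and 4 reads. CircTrpm3, from the gene of a cation channel, had 24 reads in 9 samples, with 2, 4 and 2 reads at ZT1 and 2, 3 and 3 at ZT17. CircSlit1, from the gene of a secreted ligand of Robo receptors in axon guidance, had 22 reads in 9 samples and no count above 3. It was the shortest of the 9 rings shown, with 216 bases.

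The circRNA of Nrgn, the gene of the calmodulin-binding postsynaptic protein neurogranin, had the most reads of the 472 and an uneven pattern. It lies at chr9:37552537-37552688 on the minus strand, spans 152 bases, and only 1 of its ends falls on an annotated exon boundary. All of its 130 reads were in 8 samples, with 44 in ZT1 replicate 3, 11 in ZT5 replicate 2, 17 and 9 in ZT9 replicates 2 and 3, 15 and 13 in ZT13 replicates 2 and 3, 7 in ZT17 replicate 1 and 14 in ZT21 replicate 2. The other 10 samples had 0, and no sample had between 1 and 6 reads.

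A further 8 members were found in as many samples as circNrgn, with 18 to 31 reads each. Among them were exon 2 of Jph1, the gene of a junctophilin that ties the plasma membrane to the endoplasmic reticulum, with 24 reads, and exons 10 to 12 of Ttll5, the gene of a tubulin polyglutamylase, with 19 reads. Both were found in 4 light and 4 dark samples and were picked after their values were seen.

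**Figure D2:**
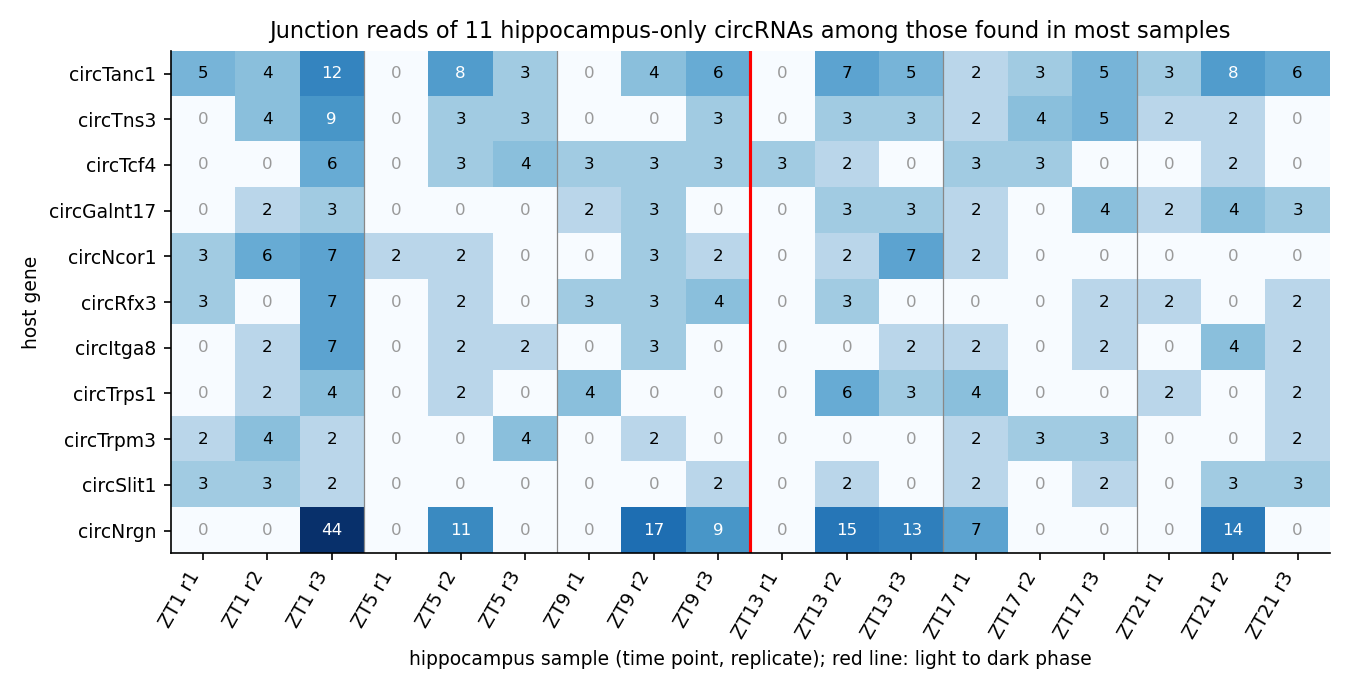
Junction reads of 11 hippocampus-only circRNAs among those found in most samples (rows, named by host gene) in each of the 18 hippocampus samples (columns, by time point and replicate), with the count printed in each cell and darker blue for more reads. CircTanc1 is found in 15 samples and circNrgn in 8, with counts from 7 to 44 where found.

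The reads of the 472 together were 4430, or 1.03% of the circular reads of the hippocampus. In the light phase, the share per sample was 1.28% ± 0.131 (SD, n = 3) at ZT1, 0.888% ± 0.0961 at ZT5 and 0.846% ± 0.0882 at ZT9. In the dark phase it was 0.753% ± 0.216 at ZT13, 1.07% ± 0.146 at ZT17 and 0.936% ± 0.0350 at ZT21. ZT1 also had the most members found in 2 replicates, 206 against 37 to 99 at the other time points, and 173 of these passed at ZT1 alone. These shares rest on the reads by which the members were chosen, so that they are a description. ZT1 replicates 1, 2 and 3 had 1.15%, 1.41% and 1.28%. When the members were chosen without ZT1 replicate 3, both of the 2 samples left at ZT1 had to hold a circRNA, against 2 of 3 elsewhere, which is a stricter rule, and the members that passed at ZT1 were 26. The shares were then 0.521% and 0.541% at ZT1 and had means between 0.653% and 0.956% at the other time points, which cannot be compared with ZT1 for this reason. The number found per sample was between 16 in ZT13 replicate 1 and 270 in ZT1 replicate 3, the samples with the fewest and the most circular reads.

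**Figure D3:**
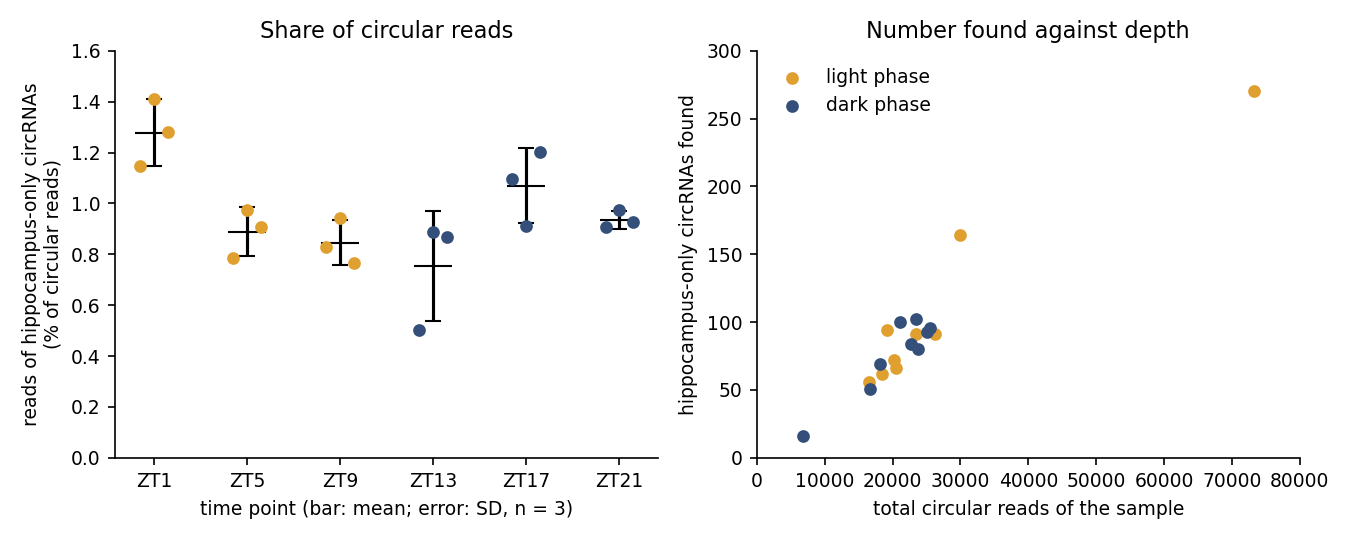
Left, reads of the hippocampus-only circRNAs as a percentage of the circular reads of each hippocampus sample by time point, with points for samples, bars for the mean and errors for the SD of 3. Right, number of hippocampus-only circRNAs found against total circular reads, with light phase samples in yellow and dark phase samples in blue, from 16 at 6754 reads to 270 at 73252 reads.

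To compare the phases, counts in the dark (ZT13, ZT17, ZT21) and the light phase (ZT1, ZT5, ZT9) were tested with edgeR's quasi-likelihood test over all circRNAs with enough reads. Of 582 circRNAs tested, 1 was a member, circNrgn, whose counts overlapped between the phases. With the dark phase set against the light phase, its log2 fold change was -0.31 with a standard error of 0.84 (adjusted p = 0.9998 by edgeR). It was 1.58 without ZT1 replicate 3 and 1.37 without ZT5 replicate 2, and -2.05 without ZT21 replicate 2, so that single samples set its sign. Of all 582, edgeR called 0 (0%) between the phases and 0 (0%) over the 6 time points, with 28 and 19 at an unadjusted p under 0.05, and DESeq2 called 1 and 0.

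With no filter on low counts, all 472 entered a fit of 5505 circRNAs. None was called between the phases, where 4 of the 5505 were (0.0727%), and none over the 6 time points, where 14 were (0.254%). At an unadjusted p under 0.05 there were 13 members (366 of all, 6.65%) between the phases and 11 (131 of all, 2.38%) over the 6 time points. The rule chose the members on these same counts, 424 of them through a single time point. Their p-values, with that of circNrgn, are therefore a description and no independent test. Where found, most members had 2 or 3 reads per sample, and a difference between the phases was in most cases not detectable at this depth. Of the 472, 154 (32.6%) were found in light samples only, 75 (15.9%) in dark samples only and 243 in both. Of all 5505 kept circRNAs, 8.92% were found in light samples only and 3.56% in dark samples only. Among circRNAs found in 2 to 5 samples, light only and dark only were 36.5% and 17.8% of the members and 20.9% and 7.53% of those with a frontal cortex read. Without ZT1 replicate 3, which leaves 8 light and 9 dark samples and needs both samples left at ZT1, 59 of 318 members were found in light samples only (18.6%, against 4.84% of the 4753 kept) and 100 in dark samples only (31.4%, against 7.09%). In each of these sets the larger of the 2 counts was on the same side for the members and for the circRNAs they are set beside. Among members in 8 samples, that of Dab1, the gene of an adaptor of reelin signalling, was found in 7 light samples and 1 dark sample, and that of Epha4, the gene of an ephrin receptor, in 6 and 2. Both were picked after their values were seen.

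Of the 472, 451 lay within a gene on their strand, in 378 host genes, and 21 did not. With 329 host genes having 1 member, 34 having 2 and 14 having 3, the members were spread over many genes. Snhg14, the host transcript of tandemly repeated snoRNAs, had 12, with 69 reads in all and each in 2 to 4 samples. Since its repeats are near copies of each other, the position of these 12 is uncertain. The circRNAs of Snhg14 other than these 12 had 2637 reads in the hippocampus, against 2337 in the frontal cortex. Trpm3, Rfx3, Tenm2 and Gria1 had 3 members each, with 59, 44, 42 and 40 reads.

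A host gene with a member could still make circRNAs in the frontal cortex. Of the 378, 208 (55.0%) had another circRNA kept in both tissues, and 51 (13.5%) had no circRNA in the frontal cortex table at all. The second group had few reads, up to the 51 of Slit1, whose 7 circRNAs were found in 12 hippocampus samples and in no frontal cortex sample, with 14 of these reads outside its members. It also held Gabra5, the gene of the α5 subunit of the GABA-A receptor, with 28 reads, Cyp7b1, an oxysterol hydroxylase gene, with 20, and Lmx1a, a homeobox factor gene, with 16. The genes other than Slit1 were picked after their values were seen. For the genes between these extremes, reads are given without the members, which have none in the frontal cortex by the rule. The other circRNAs of Tanc1 had 52 hippocampus reads and 12 frontal cortex reads, and those of Galnt17 had 138 and 37. Over the samples, those of Tanc1 ran from 0 to 2.75 reads per 10000 circular reads in the hippocampus (median 1.11) and from 0 to 1.84 in the frontal cortex (median 0).

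Members of genes of hippocampal cells were few and came from few genes. Among 23 circRNAs kept from genes of dentate granule cells, 5 were members (21.7%, against 8.57% of all kept), 3 of Rfx3 and 1 each of Dock10 and Glis3, while the mirrored rule found 0. That of Dock10, a guanine nucleotide exchange factor gene, held exons 51 to 53 and had 11 reads in 5 samples. Among 16 of hippocampal transcription factors, 4 were members (25.0%), 2 of Nr3c2 with 20 reads in 8 samples and 13 in 5, and 2 of Nfix. Without ZT1 replicate 3, the members were 4 of dentate granule cell genes and 3 of hippocampal transcription factors. Of CA1 pyramidal cell genes, 1 of 3 was a member, of the mannosidase gene Man1a, with 12 reads in 4 samples. Of CA2 and CA3 genes, 0 of 3 was, and 1 circRNA was found only in the frontal cortex. The 7 circRNAs kept from genes of cortical projection neurons held 0 members, and 2 circRNAs of such genes, 1 of them of Hs3st4, were found only in the frontal cortex.

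Members also came from genes of cells that line the ventricles. Of choroid plexus genes, 4 of 5 circRNAs kept were members, 3 of Trpm3 and 1 of Enpp2, the gene of the secreted enzyme autotaxin, which had 16 reads in 6 samples. Of genes of ciliated cells, 3 of 7 were, all of Dnah9, a dynein heavy chain gene of motile cilia. The one with most samples held exons 40 to 44 and had 19 reads in 8 samples. The mirrored rule found 0 of either list. Without the members, the circRNAs of the choroid plexus list had 0 to 7.10 reads per 10000 circular reads in the hippocampus (median 3.23) and 0 to 4.87 in the frontal cortex (median 0.832), so that the tissues overlapped. Those of Trpm3 had 114 hippocampus and 9 frontal cortex reads and those of Enpp2 had 22 in each. Only 6 of its 20 genes had a circRNA in the hippocampus, and the defining markers Ttr, Folr1 and Kl had none in either tissue. The ciliated cell list without its members had 0 to 5.92 (median 3.88) and 0 to 4.75 (median 1.63). In it, Dnah9 had 103 hippocampus and 10 frontal cortex reads without its members, while Cfap54 went the other way with 51 and 65. No other gene of the ciliated cell list had more than 4 reads in either tissue. The part of choroid plexus and ependymal cells in these members was not tested.

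The remaining cell type lists held few members or none. Of astrocyte genes, 2 of 6 circRNAs kept were members, both of the bicarbonate cotransporter gene Slc4a4, with 6 and 5 reads. That of the phagocytic receptor gene Mertk, the sole circRNA kept of the microglia list, had 6 reads in 3 samples. That of the neuregulin receptor gene Erbb4, 1 of 3 of inhibitory neuron genes, had 4 reads in 2. The 4 circRNAs of oligodendrocyte genes and the 1 of their precursors held no member, and no circRNA of endothelial or thalamic genes was kept. Mertk, Man1a and 1 of the 2 of Slc4a4 were lost when ZT1 replicate 3 was left out.

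Lists of neuronal function held more circRNAs. Among glutamate receptors, the receptors of fast and modulatory excitatory transmission, 12 of 48 kept were members (25.0%), in 8 genes, and 2 were found only in the frontal cortex. Of these 12, 5 were kept without ZT1 replicate 3. The AMPA receptor gene Gria1 had 3, of exons 3 to 11 with 14 reads in 6 samples, of exons 9 to 11 with 13 in 5 and of exons 11 to 13 with 13 in 5, so that all of them used exon 11. The other circRNAs of Gria1 had 43 reads, against 17 in the frontal cortex. Of synaptic adhesion molecules, 12 of 109 were members (11.0%), with 6 left without ZT1 replicate 3 and 3 found only in the frontal cortex. Of the teneurin gene Tenm2, exons 5 to 15 gave 20 reads, 14 of them in ZT1 replicate 3, and exons 5 to 8 gave 12, each in 4 samples. Of voltage-gated ion channels, 9 of 81 were members (11.1%), with 4 left and 5 found only in the frontal cortex, and those in most samples were of the sodium channel gene Scn8a, with 19 reads in 6 samples, and of the calcium channel gene Cacna1e, with 13 in 5.

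Other circRNAs of the host genes of members, which the rule did not choose directly, were also compared between the tissues. Of 3639 circRNAs kept in both tissues, the 700 that passed the filter on low counts were compared with edgeR over 36 samples. The shares that follow cover only these, and rarer circRNAs kept in both tissues were left out. Of the 700 tested, 115 were higher (16.4%) and 99 lower (14.1%) in the hippocampus at an adjusted p under 0.05. Of these, 141 came from 85 host genes of members: 33 were higher (23.4%), in 28 genes, and 12 lower (8.51%), in 8 genes, and no gene had both. Their median log2 fold change was 0.14, against -0.01 over the 559 of other host genes, of which 14.7% were higher and 15.6% lower. For the host genes of the 318 members kept without ZT1 replicate 3, 30 of 99 were higher and 7 lower, with a median of 0.20. CircRNAs of one gene share its transcription and their reads share samples, and the difference between the sets of host genes was not tested. The host genes were chosen in the same samples, through a circRNA with hippocampus reads and no frontal cortex read. A tilt of their other circRNAs to the hippocampus may therefore come with the choice. Host genes of frontal cortex-only circRNAs were not compared in this way.

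**Figure D4:**
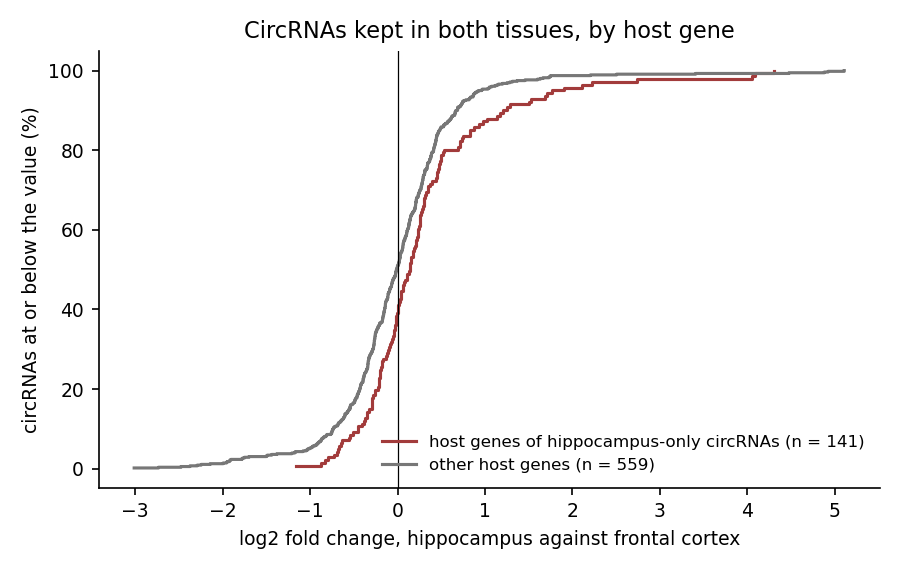
Cumulative percentage of circRNAs kept in both tissues (y axis) at or below each log2 fold change of the hippocampus against the frontal cortex (x axis), for 141 circRNAs of host genes of hippocampus-only circRNAs (red) and 559 of other host genes (grey). Only circRNAs that passed the filter on low counts are shown. The red line lies to the right of the grey line over most of the range, with medians of 0.14 and -0.01.

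The smallest adjusted p of these 141 was that of Arhgap12, the gene of a GTPase-activating protein (chr18:6111685-6115850, exons 2 to 3). It had 11.3 to 20.9 reads per 10000 circular reads in the hippocampus (median 16.7) and 1.72 to 6.96 in the frontal cortex (median 4.06), with no overlap. Its log2 fold change was 1.90 with a standard error of 0.14 (adjusted p = 1.99e-12 by edgeR). Single exon 4 of Glis3, a Krüppel-like zinc finger gene and dentate granule cell marker (chr19:28530873-28531986), had 3.19 to 11.9 in the hippocampus (median 7.98) and 0 to 2.48 in the frontal cortex (median 0). Its log2 fold change was 4.09 with a standard error of 0.32 (adjusted p = 3.34e-12 by edgeR). Exon 2 of Nfix, of the nuclear factor I family (chr8:84771784-84772315), had 28.5 to 43.8 in the hippocampus (median 36.7) and 9.51 to 26.02 in the frontal cortex (median 18.3), and a log2 fold change of 1.02 with a standard error of 0.10 (adjusted p = 4.15e-10 by edgeR). In each of these circRNAs, named for the smallest adjusted p, the tissues did not overlap. They did overlap in the circRNA with the next smallest, exons 3 to 4 of Glis3. It had 1.71 to 8.12 reads per 10000 circular reads in the hippocampus and 0 to 1.86 in the frontal cortex. The share without overlap over all circRNAs tested was not computed. The members of the same genes were rare, with 7 to 10 reads each in 2 to 4 samples.

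In Rfx3, a member of the 12 found in most samples could be set beside a circRNA of the same gene kept in both tissues, which was picked after its values were seen. CircRfx3 of exons 4 to 6 starts at the same exon as the member of exons 4 to 7, so that the capitals are the same and the lower case bases differ:

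circRfx3, chr19:27849711-27900903, minus strand, exons 4 to 6 of Rfx3-204, kept in both tissues: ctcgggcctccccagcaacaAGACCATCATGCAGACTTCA

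The Rfx3 ring of exons 4 to 6 had 456 reads in 18 hippocampus samples and 135 in 17 frontal cortex samples. Its levels overlapped, with 1.10 to 15.4 reads per 10000 circular reads in the hippocampus (median 10.8) and 0 to 6.71 in the frontal cortex (median 3.44). Its log2 fold change was 1.503 with a standard error of 0.19 (adjusted p = 7.60e-08 by edgeR). Over all circRNAs but the members, Rfx3 had 791 reads in the hippocampus against 274 in the frontal cortex.

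The opposite direction was seen too, and the genes named for it were picked after their values were seen. The circRNA of exons 22 to 26 of Atrnl1, the gene of an attractin-like membrane protein, had 4.78 to 12.8 reads per 10000 circular reads in the hippocampus (median 9.40) and 11.0 to 19.2 in the frontal cortex (median 16.1). Its log2 fold change was -0.83 with a standard error of 0.09 (adjusted p = 7.68e-09 by edgeR). CircRNAs of Dtnb, a dystrobrevin gene, and of Rims1, a gene of the presynaptic active zone, were lower in the hippocampus as well, with log2 fold changes of -0.87 and -0.45 (adjusted p = 1.93e-05 and 0.000313 by edgeR). Rings of one gene differed. A further circRNA of Rims1, of exons 30 to 31, was lower as well, at -0.38. Exons 5 to 8 of Dtnb, at -0.22, and exons 6 to 9 of Rims1, at 0.11, were not called (adjusted p = 0.091 and 0.58 by edgeR). A hippocampus-only circRNA thus also occurred in genes with a shared circRNA that was lower in the hippocampus.

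**Figure D5:**
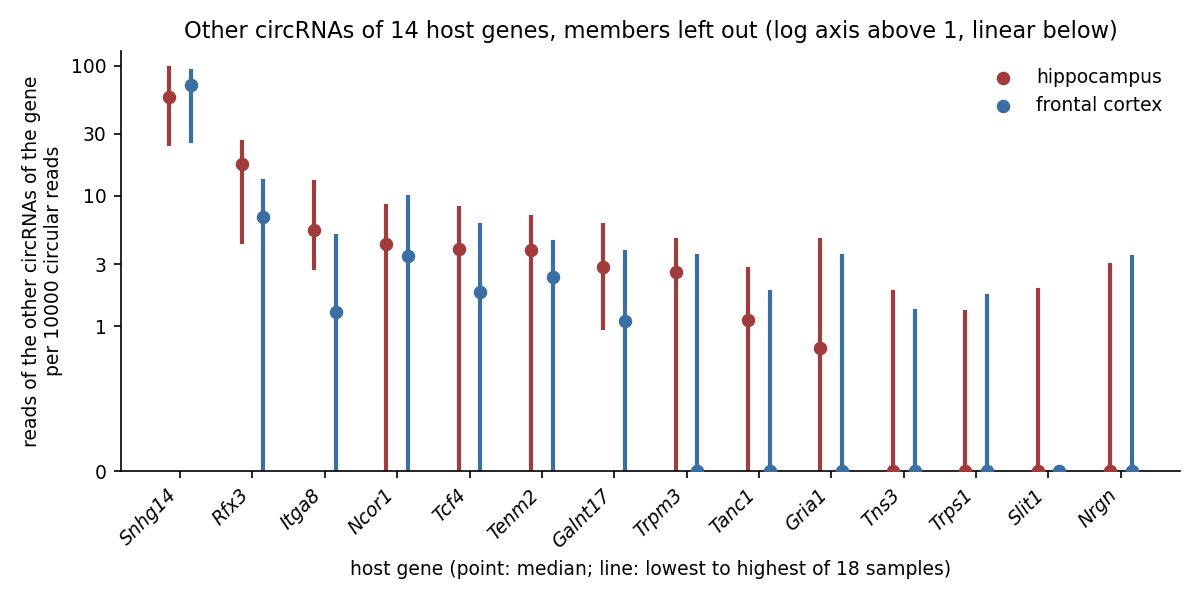
Reads of the circRNAs of 14 host genes of hippocampus-only circRNAs per 10000 circular reads, with the hippocampus-only circRNAs left out (y axis, logarithmic above 1 and linear below), in the hippocampus (red) and the frontal cortex (blue), with points for the median and lines from the lowest to the highest of 18 samples. Shown are host genes of the members found in most samples and the 5 with most members: the lines of both tissues overlap in every gene, Slit1 is at 0 in all frontal cortex samples, and medians run from 57.7 against 71.1 in Snhg14 over 17.7 against 6.92 in Rfx3 to 0 in both tissues for Tns3, Trps1, Slit1 and Nrgn.

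The ends of most members fell on exon boundaries. Both ends fell exactly on exon boundaries of one annotated transcript in 354 (75.0%), against 85.2% of the 5033 kept circRNAs with a frontal cortex read. In 10 both ends fell on boundaries of different transcripts, in 58 (12.3%) 1 end did, in 29 (6.14%) neither, and 21 (4.45%) had no host gene, against 8.27%, 2.74% and 2.21% for the last 3 classes in the others. Of the 222 circRNAs found only in the frontal cortex, 72.1% had both ends on boundaries of one transcript, 15.8% had 1 end, 4.05% neither and 7.66% no host gene. Members found in 2 samples had both ends on boundaries in 69.7%, and those found in 3 or more in 77.9%. By the annotated exons between its ends, the median ring of the 354 held 4 exons and 606 bases, against 4 exons and 575 bases in the others. The rings of the 354 ranged from 93 to 5912 bases. The ring started at exon 2 in 112 (31.6%, against 34.7%), was 1 exon in 14 (3.95%, against 6.06%) and was coding throughout in 286 (80.8%, against 78.3%). The span in the genome had a median of 16495 bases, against 13309, and was over 100000 bases in 41 (8.69%, against 4.05%). In those found only in the frontal cortex the median span was 14113 bases, and 8.56% were over 100000 bases.

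Some members used ends of circRNAs kept in both tissues, at a lower share than those circRNAs had among themselves. With a circRNA kept in both tissues, 129 shared 1 end and 19 shared both ends in different rings, 31.4% in all, while 54.4% of the circRNAs kept in both tissues shared an end with another. With any circRNA of the frontal cortex table, 201 shared 1 end, 107 both and 164 none, and the share over all kept circRNAs was not computed. Of the 12 found in most samples, circTcf4, circNcor1, circRfx3, circItga8 and circTrps1 had both ends in frontal cortex circRNAs, in other combinations, and circTns3, circSlit1 and circNrgn had neither. For 3 members, a frontal cortex circRNA lay within 10 bases at both ends.

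The 21 members without a host gene included the one at chrX:70819559-70830628 on the plus strand, which overlaps no annotated gene on either strand and had 31 reads in 8 samples. Several short ones lay opposite to a gene: that at chr14:66171751-66172092 on the strand opposite to Ptk2b had 34 reads in 7 samples, that at chr7:30444405-30445351 opposite to Aplp1 had 21 in 7, and that at chr19:7426530-7426693 opposite to Rtn3 had 22 in 6. These 4 were picked after their values were seen. The strand is that assigned when the circRNAs were identified, and the kit named in the labels does not mark strand, so that reads of these circRNAs and of the gene on the other strand cannot be told apart. Of the 21, 8 lay opposite to a gene in this way.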

How the data were processed

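Total RNA of hippocampus and frontal cortex was depleted of rRNA and sequenced in 36 samples. The authors mapped reads to GRCm38 with BWA and found head-to-tail junctions with CIRI2 at its default settings. They deposited the junction reads as whole-number counts, neither normalized nor pooled. Linear counts were not used here, and 1 further count column was left out: its name is that of the column of hippocampus ZT1 replicate 3 with a letter added, and no label says how they relate. No 2 samples had identical counts. GEO's labels gave the groups by tissue and clock time, and the light schedule in the study's methods places these times in the phases.

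CircRNAs were matched between tissues by position and strand and assigned to GENCODE M21 genes. The members, the gene lists and the tests were chosen with earlier results of these data known. Levels are reads per 10000 circular reads. Tests used edgeR 4.0.16 in R 4.3.3 (TMM, default filter on low counts, quasi-likelihood test, Benjamini-Hochberg adjustment over all circRNAs tested, threshold 0.05), with all time points as groups. Since TMM uses circular reads alone, a shift common to all circRNAs would not appear. Each fit was first tested on simulated data with known folds. DESeq2 1.42.0 was an alternative, beside other scaling, no filter, a replicate block, stricter and looser rules for the members, and leaving out each sample in turn. Python 3.11.15, numpy 2.4.6, pandas 2.3.3, scipy 1.17.1 and matplotlib 3.10.9 were used. Standard errors of fold changes were derived from the F statistic.

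Named were the 12 members found in most samples, the 5 host genes with most members, up to 2 members per gene list, the 3 circRNAs with the smallest adjusted p, and those beside the threshold. Of the 12, 1 is not reported here. Names outside this rule are marked as picked after their values were seen. Depth was 6754 to 73252 circular reads per sample in the hippocampus and 8107 to 34803 in the frontal cortex. The limit for a count of 0, at 3 reads, covers counting error only and is too low, because single reads appear as 0.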

Additional observations from a re-analysis of the deposited data

Results flagged for a closer look

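Groups of 9 hippocampus samples per phase were compared with Dixon's gap ratio, over 30 sets of values, and a sample stood apart from the others in 7. By chance about 1 in 20 groups would. ZT1 replicate 3 was the highest light phase sample in total circular reads, with 73252 against 29951 in the next, and in hippocampus-only circRNAs found, with 270 against 164. ZT13 replicate 1 was the lowest dark phase sample in total circular reads, with 6754 against 16740 in the next, and in the share of hippocampus-only circRNAs, with 0.503% against 0.866%. Its 3 reads of circTcf4 gave 4.44 reads per 10000 circular reads, against 1.32 in the next dark sample. ZT13 replicate 3 was the highest dark sample for circNcor1, with 4.18 against 0.853, and ZT9 replicate 1 the highest light sample for circTrps1, with 2.17 against 0.853. These last 3 values rest on 3 to 7 reads each.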

How the results depend on the processing

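The number of hippocampus-only circRNAs was 472. It was 28 with reads required in 3 of 3 replicates at one time point, 81 with at least 3 reads in each of 2 replicates, 107 with all samples thinned to the smallest total, and 1866 when it only had not to be found in 2 replicates of a frontal cortex time point. It was between 318 and 532 with each of the 36 samples left out. The mean share of reads per sample was 0.962%, and 0.759% with the members chosen without ZT1 replicate 3, where the rule is stricter at ZT1. No member was called between the phases or over 6 time points in any of 23 alternatives each, but under all except the one without a filter a single member was tested, which says little of the others. The members were also chosen on these same counts. The log2 fold change of circNrgn turned from -0.31 to 1.58 and 1.37 without ZT1 replicate 3 or ZT5 replicate 2, and lay between -2.05 and 1.58 with each sample left out. Of circRNAs kept in both tissues from host genes of members, 33 were higher in the hippocampus, and between 28 and 43 in 42 alternatives. With each sample left out there were 33 to 42 higher and 9 to 16 lower, against 12 lower, and 7 were lower for the host genes of members chosen without ZT1 replicate 3, where fewer circRNAs were tested. With both ends within 2 bases of an exon boundary, the share of 75.0% did not move.

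The replicate block left 28 higher and 11 lower and changed no call of a member. No pairing by replicate number was seen in these counts. The deviations of same-numbered samples from their group means had a mean correlation of -0.0034 between hippocampus time points (11 of 45 pairs over 0.1). For other-numbered samples it was 0.0017 (20 of 90), and between tissues it was -0.016 for the same number (1 of 18). With low counts and 3 replicates per group, this check cannot exclude that same-numbered tissues came from one mouse, which the labels do not state. The alternatives without ZT1 replicate 3 for the share of reads, the phases of detection, the structure and the host genes were chosen after seeing the data. Depth limits all values of single members, since most have 2 to 10 reads per sample where found.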
